A study of Mus musculus with 12 samples.

Results

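DNA methylation was compared between E9.5 PGCs and E12.5 PGCs, the primordial germ cells of mouse embryos at embryonic days 9.5 and 12.5, each measured in 2 libraries. The comparison used every annotated feature that had a level in all 4 libraries, which were 142274 of the 155615 features with a level in at least 1 of the 4 and of 176831 in the series of 12 libraries. Levels came from reduced representation bisulfite sequencing (RRBS), in which the enzyme MspI cuts at CCGG and enriches CpG-rich fragments, and bisulfite converts unmethylated cytosines so that methylated ones can be counted. Both groups carried the strain label C57BL6, with no transgene or treatment named, and according to the study's methods the cells came from gonads of female embryos and were sorted by flow cytometry on CD61 and SSEA1 or with magnetic beads on SSEA1. Which of these sorts gave which library, and how many embryos were pooled, was not stated in the sources used here. The study describes the libraries of a stage as biological replicates, and p-values below measure the spread between these libraries.

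PGCs are the precursors of eggs and sperm. While they migrate to and settle in the gonad they lose most of their DNA methylation, including the parental marks at imprinted genes, because the maintenance of methylation at replication is impaired and active oxidation of methylcytosine takes part. Promoters of many germline genes are methylated in other cells of the embryo and lose that mark in PGCs, whereas certain young retrotransposons are known to resist this loss. A level of 60%, measured in bulk DNA, can mean that 60% of cells are methylated at every site or that all cells are methylated at some sites, and these cannot be told apart here.

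The features fell into 8 overlapping classes: 13863 CpG islands, 15116 island shores, 19224 promoters, 11037 5' UTRs, 19607 exons, 19145 introns, 3999 3' UTRs and 40283 repeats. Gene parts carried 1 level per gene and class. Repeats carried an element name, a stretch of its consensus and a repeat class, without a genome position. Because the classes overlap, 11380 features had levels identical to those of another feature in all 4 libraries, so features are not independent of each other. The number of features with a level was 150523 and 147279 in the E9.5 libraries and 147697 and 149544 in the E12.5 libraries. The levels came without read counts, and the depth of a single level is therefore unknown.

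One measurement bears on the label of the cells and is given before the results. Features on the Y chromosome had a level 38 and 35 times in the E9.5 libraries and 36 and 35 times in the E12.5 libraries, against 4 and 6 in the female ESC libraries and 5 and 6 in the pESC libraries (ESCs from parthenogenetic embryos). The PGC-like cells made from these lines (PGCLCs) gave 34 and 32 from ESCs and 29 and 31 from pESCs, although parthenogenetic embryos carry no Y chromosome. The intron of Uty, a Y-linked histone demethylase gene, stood at 88.9% and 88.8% in E9.5 PGCs and at 74.4% and 70.7% in E12.5 PGCs, lower by less than the library medians were. The intron of Usp9y, a Y-linked deubiquitinase gene, stood at 68.0% and 69.2% and then at 46.6% and 48.8%. Neither gene's intron had a level in an ESC or pESC library. All 4 PGC libraries thus held reads assigned to Y-linked genes, with nearly the same number of features at both stages, and their part in the results was not tested. Since the PGCLC libraries gave similar numbers, levels at Y-linked features do not by themselves show that male cells were present. No expression was measured in these libraries, so the cell type could not be checked against marker genes.

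Sequences at several features described below are printed here. The promoter stretches of 4 genes that are active in the germ line or in pluripotent cells are shown first, since all began above 60% while the share kept at E12.5 ranged from 47.8% for Zfp42 to 68.0% for Dazl. They are up to 250 bases before the RefSeq start of each gene, cut back so that no base lies inside the gene, all read on the minus strand of GRCm38.p6, 5′ to 3′, with each CpG, the site that can be methylated, in capitals. The authors' promoter definition was not stated, so the levels cover a region of unknown extent around these bases. Which of the printed bases were read is not known. The Dazl and Zfp42 windows hold 0 CCGG sites, and those of Mael and Sycp1 hold 2 and 3. The windows of Mael (chr1:166238748-166238994, 18 CpG), Sycp1 (chr3:102936101-102936350, 17 CpG), Dazl (chr17:50293637-50293870, 19 CpG) and Zfp42 (chr8:43307010-43307259, 9 CpG) differed in CpG number, and windows were found for 5 of the 7 germline genes looked for.
Mael promoter: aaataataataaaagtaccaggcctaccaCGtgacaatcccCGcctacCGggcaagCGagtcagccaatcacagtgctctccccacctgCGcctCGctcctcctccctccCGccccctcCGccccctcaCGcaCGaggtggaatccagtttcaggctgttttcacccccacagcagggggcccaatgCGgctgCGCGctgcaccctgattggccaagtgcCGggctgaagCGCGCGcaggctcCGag
Sycp1 promoter: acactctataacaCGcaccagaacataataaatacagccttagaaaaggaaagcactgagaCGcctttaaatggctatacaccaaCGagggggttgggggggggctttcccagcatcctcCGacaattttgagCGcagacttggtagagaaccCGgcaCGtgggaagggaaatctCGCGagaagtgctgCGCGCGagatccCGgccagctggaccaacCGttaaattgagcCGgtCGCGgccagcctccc
Dazl promoter: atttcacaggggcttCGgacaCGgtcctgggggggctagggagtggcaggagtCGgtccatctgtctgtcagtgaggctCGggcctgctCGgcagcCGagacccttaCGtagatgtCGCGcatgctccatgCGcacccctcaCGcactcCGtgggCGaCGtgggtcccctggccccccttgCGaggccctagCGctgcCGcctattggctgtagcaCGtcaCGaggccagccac
Zfp42 promoter: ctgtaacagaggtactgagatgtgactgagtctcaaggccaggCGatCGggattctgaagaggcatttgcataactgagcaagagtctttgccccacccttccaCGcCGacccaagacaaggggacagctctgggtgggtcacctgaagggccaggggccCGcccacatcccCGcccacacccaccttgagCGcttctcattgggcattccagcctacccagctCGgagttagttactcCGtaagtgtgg

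A pair of CpG islands shows the extremes among islands that were highly methylated at E9.5. The first lies at chr10:79724469-79724789 in a coding exon of Hcn2, a gene for a pacemaker channel, and kept all of its methylation. The other lies at chr17:33911574-33912013 in a coding exon of Daxx, a histone chaperone gene, and kept the least of its level but for one island. Below are the middle 300 bases of each on the plus strand of GRCm38.p6, with 22 CpG in the Hcn2 stretch (chr10:79724479-79724778) and 19 in the Daxx stretch (chr17:33911644-33911943), again in capitals.
Hcn2 island: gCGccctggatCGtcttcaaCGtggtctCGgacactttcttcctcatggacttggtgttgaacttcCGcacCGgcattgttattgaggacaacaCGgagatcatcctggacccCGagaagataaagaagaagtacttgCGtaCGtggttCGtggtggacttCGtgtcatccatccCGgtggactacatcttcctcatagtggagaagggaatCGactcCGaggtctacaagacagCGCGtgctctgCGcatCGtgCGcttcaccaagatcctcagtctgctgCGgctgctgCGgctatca
Daxx island: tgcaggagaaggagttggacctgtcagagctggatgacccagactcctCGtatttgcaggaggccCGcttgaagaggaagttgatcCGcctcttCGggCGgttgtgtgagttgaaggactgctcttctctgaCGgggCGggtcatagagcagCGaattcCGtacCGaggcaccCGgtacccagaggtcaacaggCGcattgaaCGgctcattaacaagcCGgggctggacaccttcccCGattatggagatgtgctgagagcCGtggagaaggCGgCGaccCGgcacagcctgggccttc

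Methylation was lower at E12.5 than at E9.5 in every class, in both libraries against both. Over all features the mean level was 37.7% and 37.5% in the E9.5 libraries and 25.03% and 25.40% in the E12.5 libraries, a loss of 12.4 percentage points. The E12.5 libraries thus kept 67.1% of the E9.5 level, with 66.4% to 67.8% over the 4 pairs of an E12.5 and an E9.5 library. The nearest libraries of different stages were 12.1 points apart, while the SD of the replicates (n = 2) was 0.170 points at E9.5 and 0.262 at E12.5. An exact two-sided permutation test of the library means gave p = 0.333 for this value and for every class below, the smallest that 2 against 2 libraries allow.

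Feature by feature, limma on the log odds of the levels, with Benjamini-Hochberg adjustment over all 142274 features and a minimum difference of 10 points called 69681 features, which is 49% of those tested. Of all features tested, 48.9% (69619) were lower at E12.5 and 0.0436% (62) were higher. Only 0.0890% of calls were thus higher at E12.5. The median feature level moved from 40.2% and 39.1% to 22.2% and 22.9%, a shift of -17.1 points or -1.14 on the log2 odds scale. With the median of every library set to 0, the test called 58682 features, 76.0% of calls being higher, so a rise on that scale means that a feature lost less than the library medians did. The median change of single features was smaller than that shift, at -11.8 points. All levels and changes below are uncentred.

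Gene bodies and repeats lost the most in absolute terms. The 3' UTRs, which lie in the methylated distal part of genes, stood at 60.97% and 60.81% at E9.5 and at 38.95% and 39.47% at E12.5, a loss of 21.7 points. Repeats went from 64.8% and 64.6% to 44.6% and 45.1%, a loss of 19.8 points. Introns lost 15.2 points, from 42.9% and 42.3% to 27.2% and 27.6%, and exons lost 12.4 points, from 34.3% and 33.9% to 21.56% and 21.95%. In none of these classes did the libraries of the stages overlap. The called share was 80.9% in repeats, 79.9% in 3' UTRs, 63.3% in introns and 47.4% in exons.

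Classes around gene starts began lower and lost fewer points. Promoters went from 24.9% and 24.7% to 16.1% and 16.4%, a loss of 8.59 points. Shores, the flanks of CpG islands, lost 8.01 points, from 23.0% and 22.8% to 14.74% and 15.01%. CpG islands, which are mostly unmethylated in all cells, went from 7.48% and 7.47% to 5.31% and 5.52%, and 5' UTRs from 7.82% and 7.79% to 5.44% and 5.61%. The replicate spread at E12.5 was an SD of 0.149 for islands and 0.123 for 5' UTRs, against losses of 2.07 and 2.28 points.

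**Figure D1:**
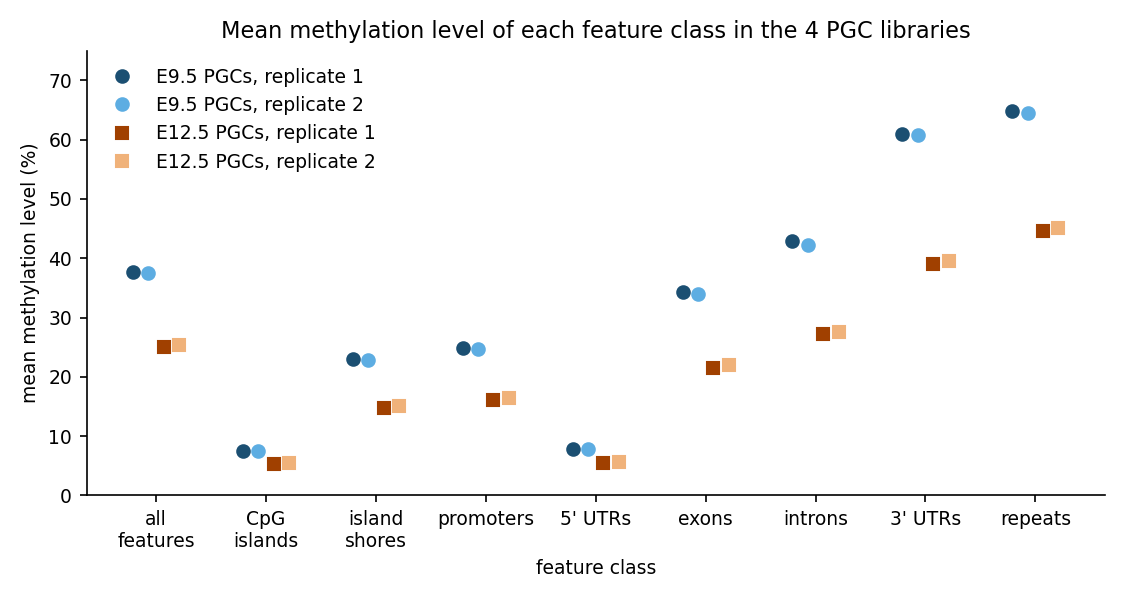
Mean methylation level in percent of each feature class on the vertical axis, with 1 point per library (circles for E9.5 PGCs, squares for E12.5 PGCs). In every class both E12.5 libraries lie below both E9.5 libraries, from a loss of 2.07 points in CpG islands to 21.7 points in 3' UTRs.

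The share of the E9.5 level that was kept differed less between classes than the absolute loss did. It was 63.7% in exons (62.7% to 64.7% over library pairs), 64.4% in introns, 64.4% in 3' UTRs, 65.0% in shores and 65.4% in promoters. Repeats kept 69.3% (68.8% to 69.8%), a range that did not overlap those of these 5 classes. CpG islands kept 72.4% and 5' UTRs kept 70.8%, but in these classes most features had almost no methylation to lose, since 89.5% of islands started below 10%. The 43158 features below 5% in all 4 libraries had a median of 2.07% and 2.07% at E9.5 and of 1.95% and 2.08% at E12.5. Among features with an E9.5 mean of at least 10%, islands kept 64.6% and 5' UTRs 60.9%, while repeats kept 69.3%, so the order of islands and repeats turned. Features below 10% at E9.5 cannot reach the 10 points that a call of a fall needs.

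Loss grew with the starting level, while the share kept stayed within a narrow band above 20%. Features that began below 20% lost 0.865 points and kept 79.98%. Those from 20% to 40% lost 11.7 points and kept 60.8%, those from 40% to 60% lost 17.5 points and kept 66.4%, those from 60% to 80% lost 24.0 points and kept 66.1%, and those above 80% lost 27.1 points and kept 68.5%. In the narrowest bins drawn, the 2780 features above 90% went from 94.5% and 94.8% to 62.5% and 63.7%. Over all features the absolute loss therefore rose from bin to bin, whereas the share kept did not rise at each step. From 20% upward it did so within promoters, shores, exons, introns and 3' UTRs, but not within islands, 5' UTRs or repeats.

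The classes behaved alike only in part along the starting level. Promoters kept 58.2%, 62.6%, 64.2% and 67.1% in the 4 bins from 20% upward. CpG islands kept 63.6%, 60.7%, 64.0% and 65.0%, so highly methylated islands did not keep more than promoters that started at the same level. Repeats kept 71.0%, 70.2%, 68.1% and 70.1%, and their share was above that of promoters and islands in every one of these bins. Repeats below 10%, which were 933 features, were 0.583 points higher at E12.5 in the mean, with 17 called higher, while the median change in this bin was -0.103 points.

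**Figure D2:**
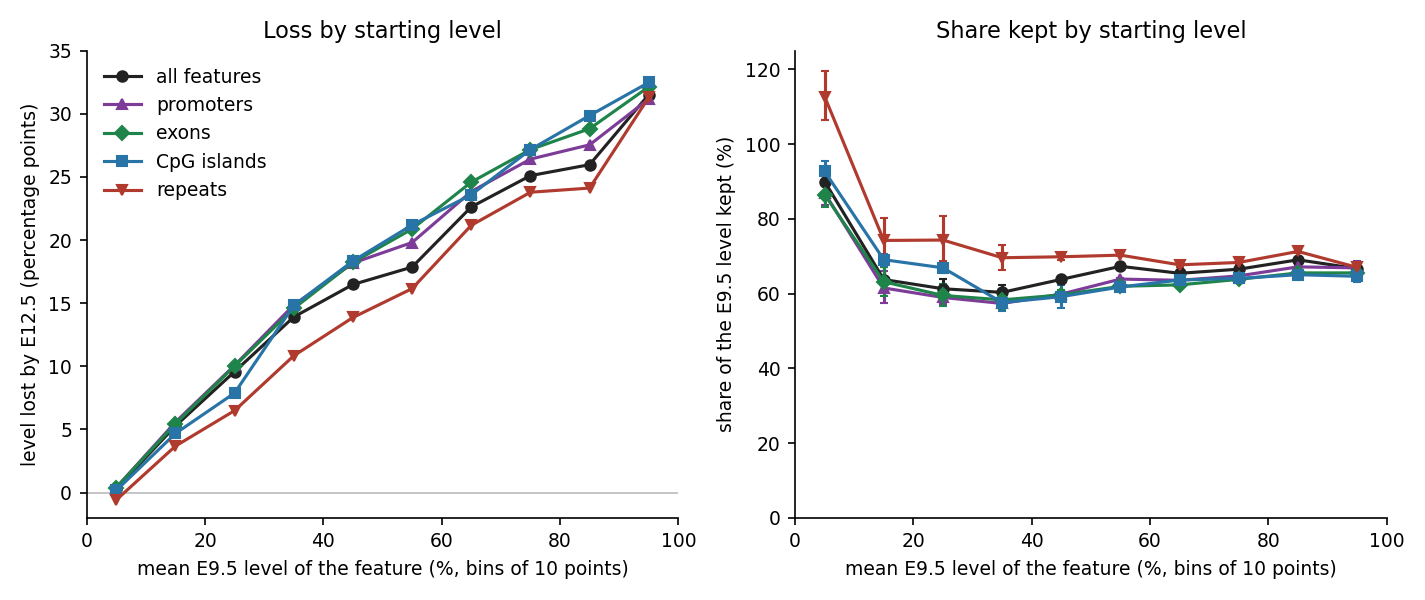
Points lost (left) and share of the E9.5 level kept in percent (right) against the mean E9.5 level of the features in bins of 10 points, for all features and 4 classes. Points are bin values over the means of the replicates and bars in the right panel span the 4 library pairs. Over all features, loss rises with the starting level to 31.5 points above 90%, whereas the share kept stays between 60.3% and 69.1% from the 20% bin upward. The classes drawn run from 57.4% (promoters, 30% to 40%) to 74.3% (repeats, 20% to 30%). Repeats lie above the other classes drawn, but above 90% their range overlaps that of promoters.

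Single features spread more widely than their classes. Among the 45426 features at 60% or more in both E9.5 libraries, the median feature kept 66.9%, and the middle 90% of features kept between 50.7% and 82.7%. The ratio of the replicates, by comparison, ran from 93.5% to 107.0% between the E9.5 libraries and from 83.6% to 124.1% between the E12.5 libraries over the same middle 90%. The E12.5 replicates thus spread more widely than the E9.5 replicates. Shares computed in separate library pairs correlated across these features with r = 0.64, a description only, since the features overlap and share depth within a library. In 98.8% of these features both E12.5 levels lay below both E9.5 levels. A share of at least 90% in every library pair was seen in 235 features and of at most 25% in 63.

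**Figure D3:**
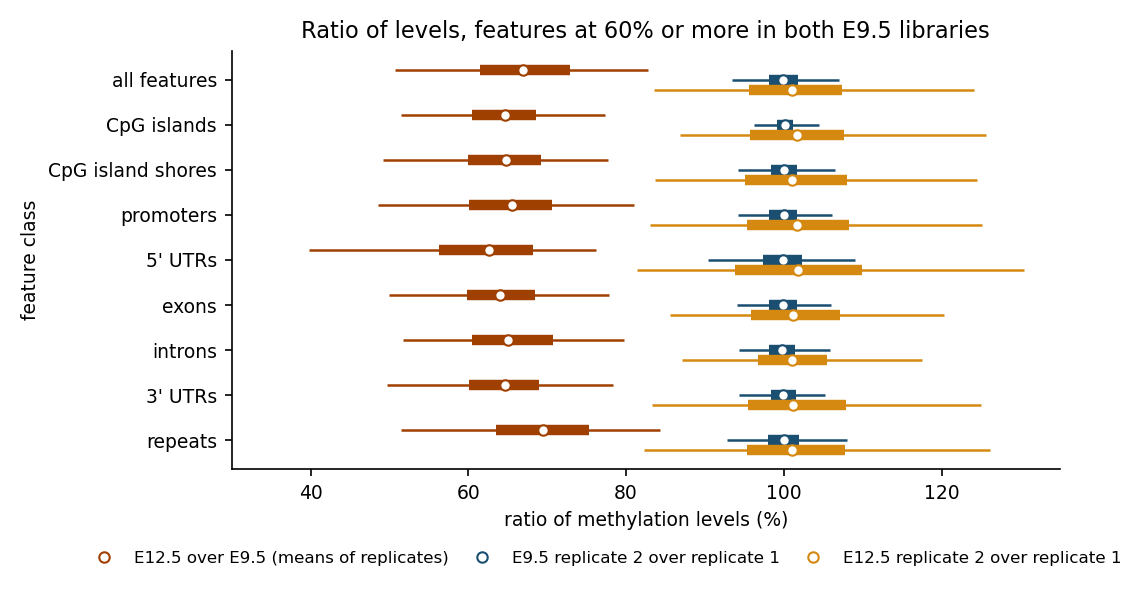
Ratios of methylation levels in percent for features at 60% or more in both E9.5 libraries, by class: E12.5 over E9.5 (brown), E9.5 replicate 2 over 1 (blue) and E12.5 replicate 2 over 1 (ochre). White points are medians, thick bars the middle 50% and thin lines the middle 90% of features. The E12.5 over E9.5 medians lie near 65% in all classes and at 69.5% in repeats, and the E12.5 replicates spread more than the E9.5 replicates.

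What highly methylated features kept was read beside their level in female ESCs. The selection did not use the height of that level, but it kept only features with a level in all 12 libraries. The features left were ordered by the share kept and split into 5 groups of nearly equal size. For promoters each group held 676 features, while the full highly methylated set held 3719 promoters. Promoters in the lowest group had a mean level of 37.6% in ESCs, and those in the highest group 53.5%, with 42.9%, 43.4% and 45.3% in between. Repeats went from 44.5% in the lowest group to 63.4% in the highest, and shores from 30.9% to 40.8%. CpG islands lay between 29.2% and 29.4% in the 4 lower groups and at 35.4% in the highest. These are descriptions across features, which are not replicates.

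CpG islands differed by place in the level they started with and less in the share of a high level that they kept. The 12080 islands within 1 kb of an annotated transcript start went from 4.85% and 4.85% to 3.68% and 3.86%. The 1237 islands inside genes and away from starts stood at 32.8% and 32.7% at E9.5, 32.0% of them at 60% or more, and at 20.8% and 21.4% at E12.5. The 542 islands between genes went from 8.20% and 8.04% to 5.76% and 6.01%. Among islands at 60% or more in both E9.5 libraries, those near starts (242) kept 65.0%, those inside genes (396) kept 64.2% and the few between genes (19) kept 68.3%. Splitting the highly methylated islands into 3 equal groups from low to high CpG density gave shares of 64.1%, 65.3% and 64.5%, and by length 64.1%, 64.6% and 65.2%.

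The Hcn2 and Daxx islands printed above mark the ends of that range. The Hcn2 island, 321 bases of coding exon with 26 CpG, stood at 87.0% and 86.3% at E9.5 and at 88.8% and 88.0% at E12.5. It was 1.74 points higher at E12.5, which limma did not call (adjusted p = 0.196), and it was called higher when libraries were centred on their medians. The Daxx island, 440 bases of coding exon with 32 CpG, fell from 85.1% and 86.7% to 31.69% and 29.97% and kept 35.9% (limma adjusted p = 0.00257). In female ESCs it stood at 2.44% and 1.97%. The Daxx exon value, which overlaps the island, fell from 80.3% and 77.5% to 26.4% and 26.8%. Only an island overlapping Pitpnm2, a phosphatidylinositol transfer protein gene, at chr5:124123525-124123735 kept less by the same measure, going from 81.6% and 81.0% to 26.75% and 25.03%.

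Rises were few, but their number depended on the libraries. It was 62 with all 4 libraries, between 122 and 219 with any 1 left out, and 813 with no minimum difference. The 62 comprised 22 repeats, 13 shores, 11 introns, 4 islands, 4 promoters, 4 3' UTRs, 3 exons and 1 5' UTR. The largest rise among islands was at chr4:107846211-107846613, 403 bases that overlap Lrp8, a lipoprotein receptor gene, and hold 52 CpG. It stood at 14.2% and 15.8% at E9.5 and at 36.3% and 33.9% at E12.5, with an adjusted p of 0.00271 by limma. The Lrp8 exon value, which shares these bases, rose from 16.5% and 17.1% to 35.3% and 33.2%. Among promoters the largest rise was that of Parm1, from 2.86% and 7.14% to 42.7% and 40% (limma adjusted p = 0.00478). The promoter of Oscp1, an organic solute carrier partner gene, rose less, from 2.03% and 1.88% to 16.2% and 16.5%. For Lrp8, Parm1 and Oscp1 the E12.5 levels stood apart from all E9.5 levels by more than the replicates differed.

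X-linked features kept a larger share than autosomal ones. The 2701 X-linked features with a position stood at 36.8% and 36.6% at E9.5 and at 25.9% and 26.6% at E12.5 and kept 71.5% (70.3% to 72.6% over library pairs). The 99187 autosomal features stood at 26.7% and 26.5% and then at 17.1% and 17.4% and kept 64.7% (63.8% to 65.6%). Per library pair the ranges did not overlap, and with 2 against 2 libraries an exact test cannot go below p = 0.333. Y-linked features had a level in all 4 of these libraries, as given above, and their part in this difference was not tested.

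The X chromosome differed in its starting levels as well as in the share kept. In female mammals one X is inactive and carries methylation at CpG islands, and it is reactivated in PGCs. X-linked CpG islands (358) stood at 22.7% and 22.9% at E9.5 and at 16.7% and 17.4% at E12.5, against 7.05% and 7.03% and then 4.98% and 5.18% for the 13497 autosomal islands. Only 4.66% of X-linked promoters began below 10%, against 57.3% of autosomal promoters. Within bins of the starting level, X-linked features kept 73.7%, 68.9%, 67.4% and 69.1% from 20% upward, and autosomal features 57.4%, 61.7%, 64.1% and 66.0%. The gap was widest from 20% to 40%, where X-linked islands (119) kept 74.0% and autosomal islands (144) kept 56.5%. Among chromosomes, promoters on autosomes kept between 63.4% and 68.0%, and those on the X kept 71.3%.

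Repeat families covered the widest range of shares. The 18 families named here hold 33799 of the 40283 repeat features (83.9%). Ancient families were among those that kept the least. The L2 and MIR elements (2026 features) went from 57.6% and 57.2% to 35.2% and 35.7% and kept 61.8%. DNA transposons kept 62.9%, MLT elements 64.2% and ancient L1M elements 64.2%. The SINE families B4, B1 and B2, short elements copied by the L1 machinery, kept 64.9%, 66.2% and 66.4%. MERVL and its MT2 LTRs, which are active at the start of embryonic development, kept 66.5%, close to the SINEs.

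Endogenous retroviruses of the IAP, ETn and MMERVK10 groups and the L1Md elements kept more. Internal parts of IAP, an endogenous retrovirus that is known to resist demethylation, stood at 77.5% and 77.1% at E9.5 and at 60.999% and 61.25% at E12.5 and kept 79.1% (78.7% to 79.4% over library pairs). IAP LTRs kept 75.9%, ETn and MusD elements 75.5% and MMERVK10 elements 75.2%, and VL30 and MuLV elements 71.1%. The L1Md A, T and Gf subfamilies (8512 features), which hold the active mouse L1 elements, went from 66.7% and 66.5% to 49.0% and 49.4% and kept 73.9%, against 72.2% for the other L1Md subfamilies (8292 features). The difference in share between IAP internal parts and L2 and MIR was 17.3 points (16.99 to 17.53 over library pairs).

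The families at either end kept their places when starting levels were matched, an alternative chosen after seeing the data. Among features that began between 60% and 80%, L2 and MIR kept 60.7%, B2 65.1%, MMERVK10 74.5% and IAP internal parts 77.2%. In the same range L1Md A, T and Gf kept 72.3% and the other L1Md subfamilies 71.3%. In points, IAP internal parts lost 16.2 and L2 and MIR lost 21.9, although IAP internal parts started higher. Some neighbouring families in the order, such as ETn and MusD beside IAP LTRs or B1 beside B2, did not differ beyond the range of the library pairs. Others did: over all their features, IAP internal parts kept 78.7% to 79.4% over library pairs and IAP LTRs 74.8% to 77.0%. In female ESCs the means of IAP internal parts were 71.5% and 66.5%, and those of L2 and MIR 39.9% and 30.3%.

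**Figure D4:**
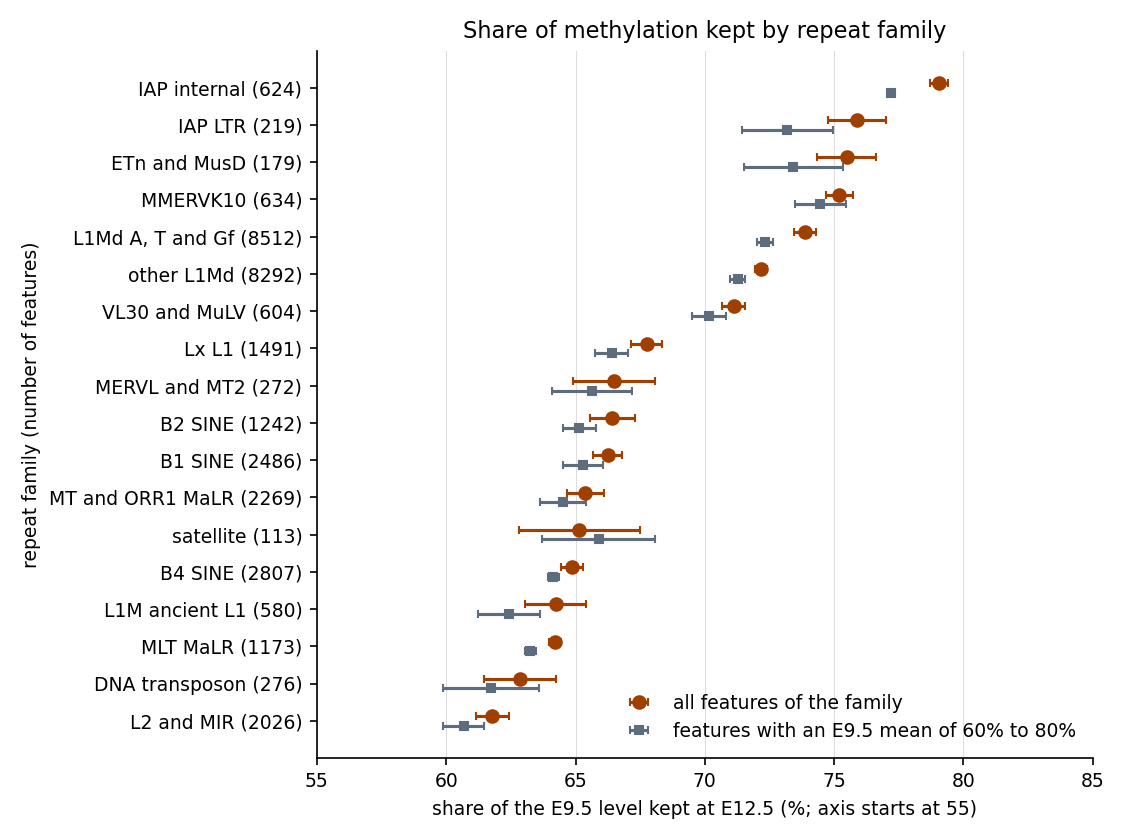
Share of the E9.5 level kept at E12.5 in percent for 18 repeat families, with the number of features in brackets. Circles are all features of a family, squares those with an E9.5 mean of 60% to 80%, and bars span the 4 library pairs. Shares run from 61.8% for L2 and MIR to 79.1% for IAP internal parts, and the axis starts at 55%.

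Within families, single elements also differed. Among IAP internal elements IAPEz-int, with 300 features, went from 81.6% and 81.1% to 65.1% and 65.5% and kept 80.3%. The ETn internal element MMETn-int kept 80.9%. Among L1 subfamilies L1MdA_I kept 79.3%, L1MdA_II 78.5%, L1MdGf_I 77.9%, L1MdA_III 74.0%, L1MdTf_I 74.8% and L1MdTf_III 71.6%. L1MdA_IV to L1MdA_VII kept between 71.7% and 72.8%, no more than the L1MdF subfamilies, which kept between 71.6% and 73.3%. The L1MdV and L1MdN_I subfamilies kept between 69.9% and 71.7%. L1MdA_I features covering a longer stretch of the consensus kept 80.9% and shorter ones 77.3%, but they started at 83.0% and 69.5% and lost 15.8 points each. In L1MdTf_I the longer and shorter features kept 74.7% and 74.8%, and in B1_Mm 67.5% and 68.9%. The L1MdTf_I and L1MdTf_II features had means of only 32.6% and 32.4% in female ESCs, yet 74.8% and 75.5% at E9.5.

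Promoters of germline genes fell along with other promoters. Over all promoters 32.3% were called lower, and of the 7132 promoters that began at 20% or more 86.1% were called lower, with a median share kept of 63.9%. Over all 19224 promoters the median change was -1.61 points. No promoter of the lists below was called higher by limma, and at an unadjusted p under 0.05 the number higher was 1 of the germ granule list, 1 of the meiosis list, 1 of the Hox list and 0 of each other list. Relative to the library medians, 1432 promoters were called lower and 8990 higher. No promoter of the imprinted, methylation machinery, somatic gonad and Hox lists fell far enough for a centred call of lower.

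Genes of germ granules and the piRNA pathway, which silences transposons in germ cells, had 17 promoters tested, of which 12 were called lower, and with libraries centred on their medians 2 were lower and 1 higher. All 12 were among the 13 that began at 20% or more, whose median share kept was 64.4%. Ddx4, an RNA helicase of germ granules at chr13:112598333-112652475, stood at 72.3% and 72.9% at E9.5 and at 46.2% and 46.4% at E12.5, with a difference of 26.3 points between the stages. Mael, a piRNA pathway gene, went from 65.9% and 66.3% to 43.0% and 42.1%, and Dazl, an RNA-binding protein gene needed for germ cell development, from 65.6% and 66.0% to 46.0% and 43.4%. Piwil2, a PIWI protein gene, went from 70.1% and 69.0% to 44.19% and 44.998%. In these genes the E12.5 libraries lay close together and well below both E9.5 libraries, and the share kept was 63.8% for Ddx4, 64.4% for Mael, 68.0% for Dazl and 64.1% for Piwil2. Asz1, from the same pathway, went from 87.5% and 88.0% to 64.7% and 54.0%, Tex101 from 88.8% and 87.5% to 70.0% and 61.2%, and Tuba3a, a germ-cell tubulin gene, from 91.1% and 90.6% to 59.4% and 49.3%. For these, the E12.5 libraries were several points apart.

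Meiosis genes had 23 promoters tested and 11 called lower, and with centred libraries 2 were lower and 5 higher. All 11 were among the 14 that began at 20% or more. Sycp1 and Sycp2, components of the synaptonemal complex that joins paired chromosomes, went from 73.36% and 72.03% to 43.1% and 48.3% and from 72.9% and 73.6% to 45.3% and 48.0%. Msh4, a crossover gene, kept only 47.5%, going from 69.8% and 73.5% to 33.9% and 34.2%. Hormad1, a chromosome axis gene, kept 78.7%, going from 82.6% and 81.4% to 64.0% and 65.0%. Msh4 and Hormad1 thus differed by far more than their replicates. Sycp3 stood at 57.1% and 57.7% and then at 47.4% and 27.3%, a difference that was not called (limma adjusted p = 0.106) and whose E12.5 libraries were far apart, and without the first E12.5 library it was called. Spo11, the gene for the enzyme that starts meiotic recombination, stood at 30.2% and 30.5% and then at 24.2% and 21.6%, below the 10 points required.

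Among genes of PGC identity and pluripotency, Zfp42 and Dppa3 kept less than any other listed promoter that began at 20% or more, except Msh4. Of 13 tested promoters of PGC identity genes 6 were called lower, all 6 of those that began at 20% or more, and with centred libraries 2 were lower and 5 higher. Of 17 pluripotency promoters 5 were called lower, again all that began at 20% or more, and with centred libraries 2 were lower and 10 higher. Zfp42, a pluripotency marker that is in both lists and at chr8:43295063-43306980, went from 65.4% and 63.8% to 30.7% and 30.9% and kept 47.8%. Dppa3, which encodes a maternal and germ cell factor that protects methylation in the zygote, went from 67.1% and 69.8% to 32.38% and 34.96% and kept 49.2%. The E12.5 libraries of both genes agreed within 3 points and lay more than 30 points below the E9.5 libraries. In female ESCs both promoters were nearly unmethylated, with 1.86% and 2.58% for Zfp42 and 2.55% and 3.61% for Dppa3.

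Dppa5a, another early germ cell and pluripotency gene, went from 83.0% and 82.3% to 50.4% and 51.7%, and Dppa2 from 70.5% and 69.1% to 47.1% and 48.1%. Tcl1, an AKT cofactor gene, went from 74.2% and 72.2% to 52.6% and 50.7%. Kit, the receptor that PGCs need for survival and migration, went from 45.3% and 52.2% to 28.68% and 27.03%. Its groups did not overlap, but the call was lost without the second E12.5 library. Pou5f1, which encodes the pluripotency factor OCT4, stood at 24.8% and 24.7% and then at 15.7% and 13.4%, a fall of 10.1 points whose call was lost without the second E12.5 library, where it was 9.02 points, and which turned into a rise when libraries were centred on their medians. As the E9.5 levels of Zfp42, Dazl and Mael were within 3 points of each other, the 47.8% kept by Zfp42 against 68.0% and 64.4% shows unequal loss from like starting levels.

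Imprinted genes followed the same course. Of 19 tested promoters of genes listed with maternal germline methylation 15 were called lower, and with centred libraries none was lower and 3 were higher. The largest fall among the 19 was a change of -23.9 points, short of what a centred call of lower needs. Several of these genes are neighbours with shared promoter regions, and the list also holds Igf2, whose control region carries paternal methylation. The median level of the 19 promoters went from 52.9% to 30.5%, and the median share kept by the 16 that began at 20% or more was 61.5%. Zrsr1, a splicing factor gene inside an intron of another gene, went from 51.2% and 50.1% to 27.7% and 29.0% and kept 56.0%. Snrpn, a gene of the imprinted region of chromosome 7, went from 59.2% and 66.5% to 41.7% and 48.1% and kept 71.5%, and its call was lost when any library but the first E9.5 one was left out. Igf2r, the receptor gene that clears IGF2, stood at 25.4% and 19.7% and then at 17.9% and 13.2% and was not called (limma adjusted p = 0.123). Its 5' UTR, at 30.9% and 31.5% and then at 21.6% and 15.8%, was called lower (limma adjusted p = 0.0263).

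Genes listed with paternal germline methylation had 5 promoters tested and 1 called lower, and with centred libraries none was lower and 2 were higher. The called promoter was that of Meg3, a maternally expressed long RNA, which went from 48.0% and 50.0% to 36.0% and 36.8%, a fall of 12.5 points that became a rise when libraries were centred and whose call was lost without the second E9.5 library, where it was 11.5 points. H19, also a maternally expressed long RNA, stood at 69.4% and 57.1% and then at 41.0% and 47.8%, with groups that did not overlap but an adjusted p of 0.054 by limma. The remaining 3 began near 0.

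The methylation machinery had 21 promoters tested and 5 called lower, and with centred libraries none was lower and 9 were higher. Dnmt3a, a de novo methyltransferase gene, went from 42.9% and 36.2% to 19.8% and 20.3% and kept 50.7%. Dnmt3l, its germ cell cofactor, went from 64.3% and 64.9% to 49.5% and 44.7% and kept 73.0%. Mbd3, a gene of the NuRD repressor complex, had the most methylated promoter of the list, with 88.25% and 89.97% and then 68.2% and 65.2%. It stood at 1.79% and 2.45% in female ESCs.

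Genes of other cells of the gonad had 13 promoters tested and 2 called lower, and with centred libraries none was lower and 8 were higher. The called promoters were those of 2 endothelial genes. Pecam1 went from 64.1% and 65.2% to 46.4% and 49.6%, and Cdh5 from 67.1% and 66.8% to 51.5% and 52.4%, and both turned into small rises when libraries were centred. They kept 74.3% and 77.6%, more than the median promoter. The other 11, with somatic gonad regulators such as Wt1, Gata4, Nr5a1, Foxl2 and Lhx9 among them, began below 10%. Their promoters could thus not be called lower. Hox genes, which are kept unmethylated in most cells, had 34 promoters tested and none called by limma, with a highest E9.5 mean of 13.6%. At an unadjusted limma p under 0.05, 2 were lower, and with centred libraries 28 were higher. Centring moved promoters with almost no methylation up by construction, so these 28 and the 8 above reflect the low start. The 3' UTRs of Hoxd8 and Hoxd3, singled out after their values were seen, were called higher by limma. Of all 3999 3' UTRs, 4 were called higher. Hoxd8 was listed at 0 in both E9.5 libraries and stood at 13.3% and 16.7% in E12.5 PGCs. Its depth is unknown, and PGCLC replicates differed widely there, with 57.1% and 10% from ESCs and 10.5% and 0 from pESCs. Hoxd3 went from an E9.5 mean of 10.3% to 29.7% and 23.3%.

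**Figure D5:**
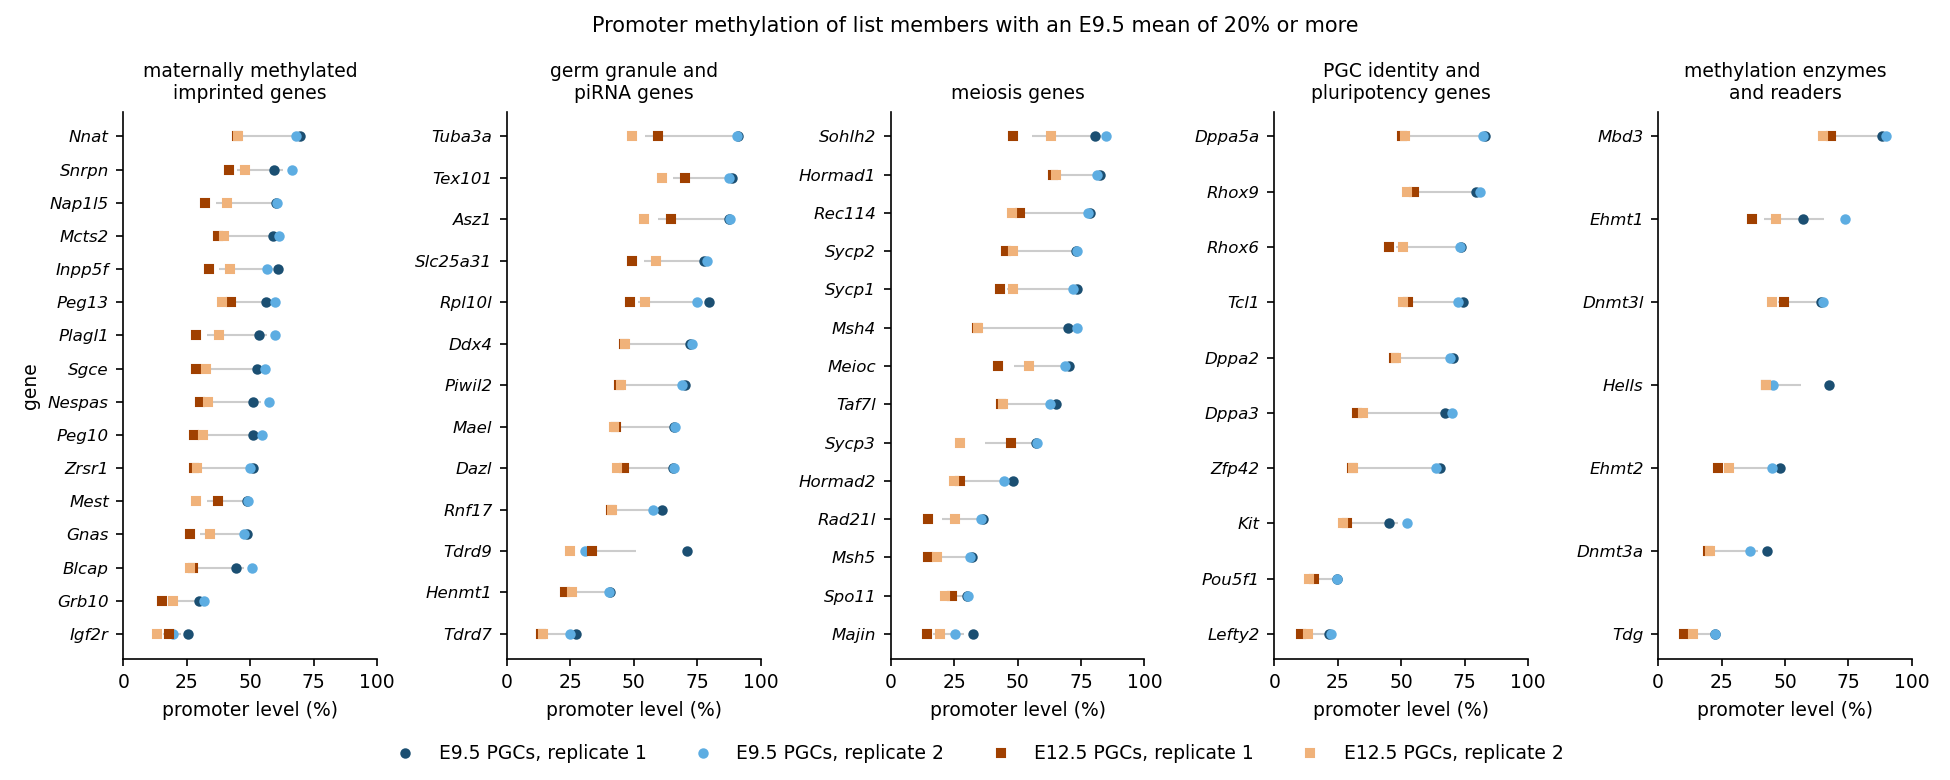
Promoter methylation level in percent in each of the 4 libraries (circles for E9.5 PGCs, squares for E12.5 PGCs) for list members with an E9.5 mean of 20% or more, joined by grey lines between the stage means. The lists drawn are those of maternal imprints, germ granules, meiosis, PGC identity with pluripotency, and the methylation machinery. Most genes show both E12.5 libraries below both E9.5 libraries, with Msh4, Dppa3 and Zfp42 falling to under 36% and Hormad1 staying at 64.0% and 65.0%, although relative to the library medians few promoters of these lists are called lower and those of Pou5f1, Meg3, Pecam1 and Cdh5 are higher.

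The same rule used for islands gave the extremes among highly methylated promoters. The promoter of Gm43436 stood at 84.1% and 83.8% at E9.5 and at 82.1% and 85.1% at E12.5, groups that overlapped, and it was higher when libraries were centred. At the other end, the promoter of n-R5s61, a 5S ribosomal RNA copy whose reads may be shared with other copies, went from 64.4% and 61.7% to 8.93% and 9.93%, and that of Mirlet7e, a let-7 microRNA gene, from 60.4% and 61.1% to 12.03% and 10.94%. These kept 14.96% and 18.9% of their E9.5 level. In female ESCs the Mirlet7e promoter stood at 21.5% and 14.9% and that of n-R5s61 at 64.6% and 50.4%.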

How the data were processed

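RRBS libraries of E9.5 and E12.5 PGCs were analysed, 2 per stage. The authors deposited 1 methylation level per feature as a fraction (methylated over all CpG reads), without read counts, so no test on counts could be made. Per the submitters' processing notes, reads were aligned to mm10 with Bismark 0.16.3 and Bowtie2. The coverage minimum and the promoter definition were not given in the sources used here. The methods describe a correction for non-conversion, which is not visible in the values. Fractions were multiplied into percent. Features with a level in all 4 libraries were kept. Levels were tested as log2((level + 0.01)/(1 - level + 0.01)) with limma 3.58.1 in R 4.3.3, with Benjamini-Hochberg adjustment over all features. A call needed an adjusted p under 0.05 and 10 points of difference. The share kept is the mean E12.5 level over the mean E9.5 level, with its range over the 4 library pairs. The code was tested on simulated data. Gene names came from GENCODE M21, matching 30060 of 30073 IDs. Island starts, counted from 0 in the files, are printed from 1.

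Members and gene lists were chosen with earlier results of these data known. Genes named singly are list members, or among the 5 promoters, islands or repeats of largest rise or fall, or of highest or lowest share kept from 60%. The Y-linked introns, the Daxx and Lrp8 exons and the Igf2r 5' UTR were added after their values were seen. Alternatives were other offsets, minimum differences, filters, fits with more libraries, exon or intron values and leaving out each library. Added after seeing the data were a start of at least 10%, matched starting levels for repeats and the X chromosome, and centring each library on its median.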

Additional observations from a re-analysis of the deposited data

Results flagged for a closer look

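Levels at Y-linked features stood out. Those with a level in all 4 PGC libraries, such as the Uty intron, were among the features compared between stages. The E9.5 libraries gave a level at 38 and 35 Y-linked features and the E12.5 libraries at 36 and 35, against 4 and 6 in the female ESC libraries, while the study's methods describe female embryos. The PGCLC libraries gave 34 and 32 from ESCs and 29 and 31 from pESCs, lines of parthenogenetic origin, so the count alone does not show male cells. The part of these reads in the results on the X chromosome was not tested.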

How the results depend on the processing

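The change in points kept its direction for the whole set, each class and each chromosome group under all 78 alternative values. For the starting-level bins only the share kept was varied. Calls numbered 41376 with a minimum of 20 points, 35911 of 99187 autosomal features, and 62074 to 63599 with 1 library left out. Features called higher numbered 813 with no minimum, 13 with 20 points, 39 among autosomal features, 41 without levels of exactly 0 or 1, 44588 with centred libraries and 122 to 219 with 1 library left out. Calls were 68579 to 69535 with other offsets, 67453 on untransformed levels and 68050 in a fit of the 8 PGC and PGCLC libraries.

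The share kept depended on how it was averaged. By the median over features it was 57.0% over all features, 97.4% in islands, 73.8% in shores, 72.8% in promoters, 98.02% in 5' UTRs, 58.3% in exons, 58.9% in introns, 63.0% in 3' UTRs, 67.0% in repeats, 77.3% on the X and 73.1% on autosomes. From a start of at least 10% it was 64.6% in islands, 62.4% in shores, 63.8% in promoters, 60.9% in 5' UTRs and 62.9% in exons. Features from 0% to 20% kept 75.8% when binned on the second E9.5 library and read in the first, and 91.2% as the median per feature, which was 67.2% from 40% to 60%. The gap between IAP internal parts and L2 and MIR was 15.9 points by medians and 16.5 at matched starts.

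With centred libraries, the promoters called lower were 0 for maternal imprints, 0 for paternal imprints, 2 for germ granules, 2 for meiosis, 2 for PGC identity, 2 for pluripotency, 0 for the methylation machinery and 0 for somatic gonad genes. The lists at 0 held no promoter that fell far enough for such a call. Exon values, uncentred, gave 2 of 5 for paternal imprints and 21 of 23 for germ granules. They gave 14 of 23 for the methylation machinery and 6 of 15 for somatic gonad genes. Over all exons 47.4% were called lower. Intron values, also uncentred, gave 5 of 6 for paternal imprints, 20 of 26 for germ granules and 25 of 31 for meiosis. They gave 12 of 17 for PGC identity, 13 of 23 for the methylation machinery and 8 of 14 for somatic gonad genes. Over all introns 63.3% were called lower. The fit of 8 libraries gave 2 for paternal imprints. Centring turned the change to a rise of 6.91 points for Pou5f1, 0.450 for Pecam1, 2.06 for Cdh5, 4.51 for Meg3, 16.7 for Gm43436 and 0.822 for the Uty intron. H19 was called with a trended and robust fit, in the fit of 8 libraries and without the second E9.5 library. Where no construction is named, the cause was not tested.

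Replicate numbers did not pair the samples, since the deviations of same-numbered libraries correlated at -0.0433, and the fit with the replicate block gave 68637 calls. Depth per level is unknown, and 2 libraries per stage limit the precision.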
